A study of Mus musculus with 9 samples.

Results

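Both bisphenol exposures of a mouse uterus study were pooled here and set against the controls, to ask which genes stood on the same side of every control whichever bisphenol was given. All 6 exposed libraries formed 1 group and all 3 control libraries the other, so all 9 libraries of the series were used. A gene was tested where it reached 1 FPKM (fragments per kilobase of transcript, scaled to the library total) or more in at least 3 libraries, which held for 13743 genes. A tested gene is called separated where all 6 exposed values lay above, or all lay below, all 3 control values. This held for 1404 of the 13743 genes, or 10.2%. Separation was read from the same values that are compared, so it is a description and carries no test.

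The mice were wild-type females of CD-1 (ICR), an outbred stock. They were bought at 7 to 8 weeks of age, acclimatized for 1 week on estrogen-free food, and then gavaged daily for 28 days with corn oil (control), with bisphenol B (BPB) or with bisphenol AF (BPAF), the daily dose of either bisphenol being 300 µg/kg body weight. Whole-uterus RNA was sequenced after stranded mRNA library preparation, 3 libraries per group. The labels do not give cycle stage or hour of collection, and do not say whether a library came from 1 animal, so p-values measure the spread between these libraries, which may be in part technical. The corn oil group is the only control, and each bisphenol was given at a single dose.

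BPB and BPAF are replacements for bisphenol A. In both, 2 phenol rings are joined through 1 carbon, which carries a methyl and an ethyl group in BPB and a pair of trifluoromethyl groups in BPAF. The uterus is a layered organ of luminal and glandular epithelium, stroma and smooth muscle, and estradiol and progesterone set the growth and secretion of these layers through their nuclear receptors. Most cells of the uterus also run the circadian clock, in which BMAL1 and CLOCK drive the genes of their own repressors and of the output factors DBP, TEF and HLF.

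Depth inferred from the values was 12620198 to 15616772 reads per library, and 11614 to 13105 genes reached 1 FPKM. Epithelial, stromal and muscle markers of the uterus (Epcam, Pdgfra, Hoxa10, Hoxa11 and Myh11) were present in all 9 libraries. Mitochondrially encoded transcripts took 3.52%, 3.399% and 13.0% of reads in control 1, 2 and 3, and 5.81% to 8.31% in the exposed libraries. Control 3 also had the lowest scaling factor by median ratios, 0.734 against 0.922 and 1.01 in the other controls and 1.04 to 1.11 in the exposed libraries. Libraries BPB 1, BPB 2, BPB 3 and BPAF 1 held transcripts of urothelium, the lining of the bladder and urethra, at levels that controls, BPAF 2 and BPAF 3 did not reach, as described with the marker lists.

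Of the 1404 separated genes, 1172 (8.53% of tested genes) lay above the controls and 232 (1.69%) lay below. The median difference over all tested genes was 0.19 on the log2(FPKM + 1) scale, on which all differences below are given and on which changes of low genes come out too small. Scaling the libraries by median ratios took this median to -0.03 and turned the split to 487 higher and 590 lower. All 487 and all 232 of the original lower genes were separated in the same direction under both scalings, while the other higher genes overlapped after scaling. The gap, the distance between the nearest exposed and control library, was under 0.1 for 531 separated genes and 0.5 or more for 120, of which 59 were higher and 61 lower. All 120 were also separated after scaling, and 6 higher and 12 lower genes had a gap of 1 or more.

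**Figure D1:**
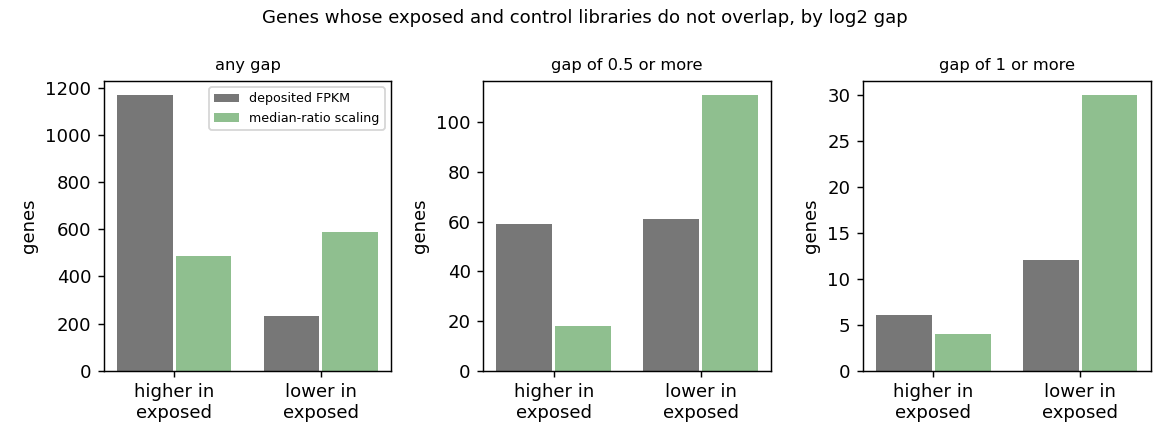
Number of genes (vertical axis, from 0) whose 6 exposed libraries all lay above or all lay below the 3 controls, for any gap and for log2 gaps of 0.5 and 1 or more, in deposited FPKM (grey) and after median-ratio scaling (green). The excess of higher genes in deposited values, 1172 against 232, is seen where gaps of all sizes are counted. It is not seen after scaling, where 487 were higher and 590 lower. Nor is it seen in deposited values at a gap of 0.5 or more (59 higher, 61 lower) or 1 or more (6 and 12).

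Lower and higher separated genes differed in level and size. The 232 lower genes had a median control level of 13.6 FPKM and a median difference of -1.25, and the 1172 higher genes 2.64 FPKM and 0.66. Protein-coding genes made up 95.6% of the lower and 92.1% of the higher genes found in GENCODE M21, beside 93.4% of all tested genes. At the edge of the rule, Fbp2, a muscle-type fructose bisphosphatase, was just inside with 3.103 FPKM in its lowest exposed library, BPAF 3, and 3.103 FPKM in its highest control. Ankfn1 was just outside, being listed at 0 in all controls and in BPAF 2. A further 743 genes missed separation by under 0.1.

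The test of the pooled groups called far fewer genes than were separated. With limma and Benjamini-Hochberg adjustment over the 13743 genes, 24 genes (0.175%) passed an adjusted p of 0.05, 7 higher (0.0509%) and 17 lower (0.124%), and all 24 were separated. Genes with an unadjusted p under 0.05 numbered 2550. The 7 higher genes were Nr1d1, Dbp, Ggnbp1, Plxnb1, Wfdc15b, Prodh and Amt. Among the 17 lower genes were Zbtb9, the signalling genes Pnoc, Nppc, Grpr and Il1f9, the surface proteases Tmprss11d and Tmprss11b, and Adamts1, Plod2, Omd and Cilp. After median-ratio scaling 81 genes passed, 7 higher and 74 lower, with all 24 kept. The count depended on single libraries: it was 1 without control 1, 52 without control 3, 10, 8 and 4 without BPB 1, 2 and 3, and 5, 310 and 5 without BPAF 1, 2 and 3. With only BPAF 2, BPAF 3 and the controls no gene passed, and 760 had an unadjusted p under 0.05.

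**Figure D2:**
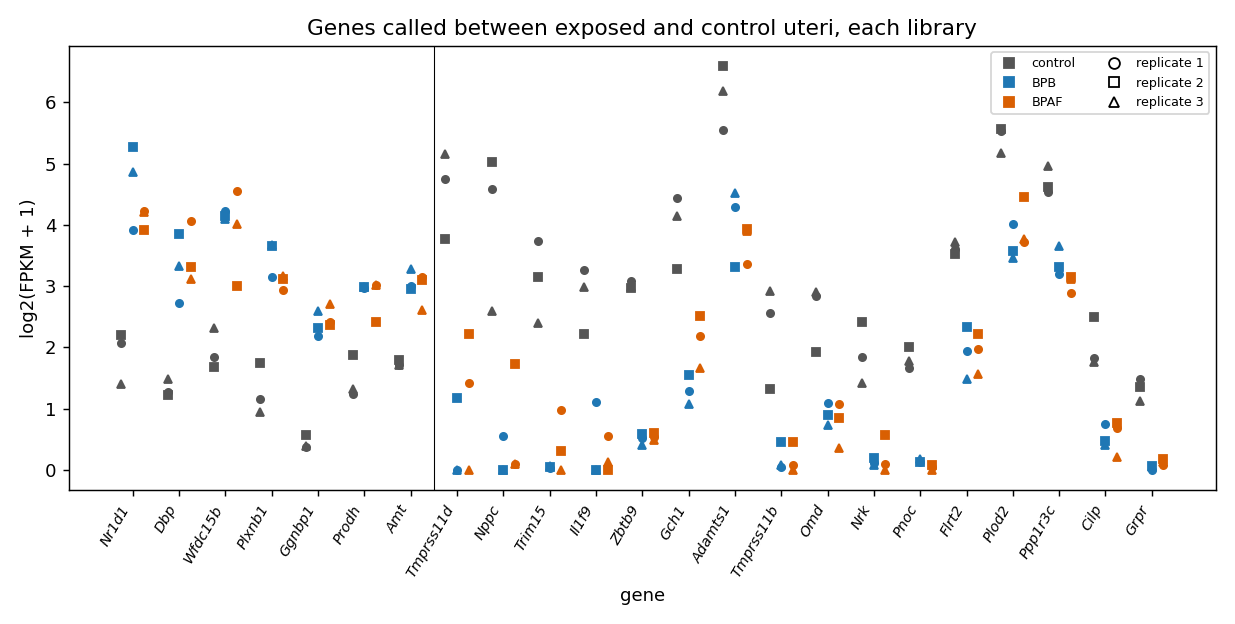
Levels on the log2(FPKM + 1) scale (vertical axis) in each of the 9 libraries for the 23 called genes with a gene name, 7 higher in the exposed uterus (left of the line) and 16 lower (right), with colour for group and shape for replicate. In each gene shown, the 3 control points lie apart from all 6 exposed points.

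Zbtb9 and Ggnbp1, of the called genes, passed in the most alternative fits. Zbtb9, which encodes a zinc finger and BTB domain protein, stood at 7.46, 6.83 and 6.97 FPKM in control 1, 2 and 3 and at 0.320 to 0.514 FPKM (median 0.443) in the exposed libraries. All 6 exposed values were tightly grouped and lay far below the controls, with a difference of -2.49 ± 0.16 (SE) and an adjusted p of 0.000186. Ggnbp1, gametogenetin binding protein 1, moved the other way, from 0.304, 0.487 and 0.315 FPKM in the controls to 3.53 to 5.54 FPKM (median 4.23) in the exposed libraries (difference 1.98, SE 0.18, adjusted p = 0.00358). Its groups did not overlap either. The difference from control was -2.51 in BPB and -2.48 in BPAF for Zbtb9, and 1.92 and 2.04 for Ggnbp1. In GENCODE M21 these genes overlap on the same strand, so reads in the shared stretch cannot be assigned to 1 of them with certainty and the pair of results is not independent. Zbtb9 passed in 19 of its 21 alternative fits and Ggnbp1 in 18 of 20. Plxnb1 and Pnoc passed in 16 each, Trim15 in 15, Nr1d1 in 13, Dbp and Il1f9 in 11 each, and the other named called genes in 5 to 10. The mean FPKM ratio was 16.2 in favour of the controls for Zbtb9 and 12.0 in favour of the exposed libraries for Ggnbp1.

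Of the circadian clock genes, 5 were separated, all higher in the exposed uterus, and 2 of them, Nr1d1 and Dbp, passed the test. Nr1d1 encodes REV-ERB alpha, a nuclear receptor that represses Bmal1. It stood at 3.22, 3.60 and 1.65 FPKM in the controls and at 14.05 to 37.6 FPKM (median 17.7) in the exposed libraries. Every exposed library held several times the highest control, BPB 2 and BPB 3 being the highest, and the difference was 2.51 ± 0.34 (SE) with an adjusted p of 0.0317. Dbp, a transcription factor that binds D-box elements, stood at 1.41, 1.35 and 1.79 FPKM in the controls and at 5.65 to 15.7 FPKM (median 9.001) in the exposed libraries (difference 2.07, SE 0.29, adjusted p = 0.0344). BPB 1 was the lowest exposed library for both genes. Nr1d1 overlaps Thra, and Dbp overlaps Sphk2, on the opposite strand, and whether the counting used the strand is not given in the sources used here.

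The paralog of Nr1d1, Nr1d2, stood at 5.68, 5.74 and 9.55 FPKM in the controls and at 15.3 to 35.1 FPKM (median 24.4) in the exposed libraries, with an adjusted p of 0.0554. Per3, a period gene, held 1.14, 0.772 and 0.187 FPKM in the controls and 1.32 to 4.65 FPKM (median 3.15) in the exposed libraries. Tef, a relative of Dbp, held 2.02, 2.39 and 0.660 FPKM in the controls and 2.65 to 6.66 FPKM (median 5.31) in the exposed libraries. In these 3 genes the groups did not overlap but the test was not passed, and BPB 1 was again the lowest exposed library. Of 18 tested clock genes, 5 (none lower) were separated against 8.53% of all genes higher, and the list median was 0.50 beside 0.19 over all genes. After median-ratio scaling all 5 were still separated higher, and Per2 was separated lower. The other 13 members overlapped between groups: Arntl, the gene of BMAL1, stood at 15.0, 12.9 and 7.31 FPKM in the controls and at 6.79 to 11.4 FPKM (median 8.86) in the exposed libraries. Bhlhe40, a repressor of clock genes, held 56.7, 27.4 and 22.7 FPKM in the controls and 4.28 to 32.5 FPKM (median 8.55) in the exposed libraries, and only BPAF 2 exceeded any control. Per2 stood highest in control 2, at 28.3 FPKM, beside 9.90 and 5.26 in the other controls and 3.58 to 6.52 FPKM (median 5.82) in the exposed libraries.

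The promoter of Per3 is shown because it alone, of the separated clock genes, holds the D-box that DBP and TEF bind within 250 bases upstream of its RefSeq start. The stretch lies at chr4:151044804-151044882, minus strand, in GRCm38.p6, and capitals mark the 2 D-box matches. Of the 18 tested clock genes, 15 had such a RefSeq window.
Per3: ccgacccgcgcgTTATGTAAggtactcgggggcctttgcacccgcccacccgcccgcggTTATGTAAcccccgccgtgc
The motif searched was TTATGTAA on both strands, and 0.819% of 32851 RefSeq promoter windows of that length hold it. The E-box CACGTG, the element bound by BMAL1 and CLOCK, is in 6.02% of the windows and, among the 5 separated clock genes, in that of Tef. Nr1d1, Nr1d2 and Dbp had neither set of letters in this window.

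**Figure D3:**
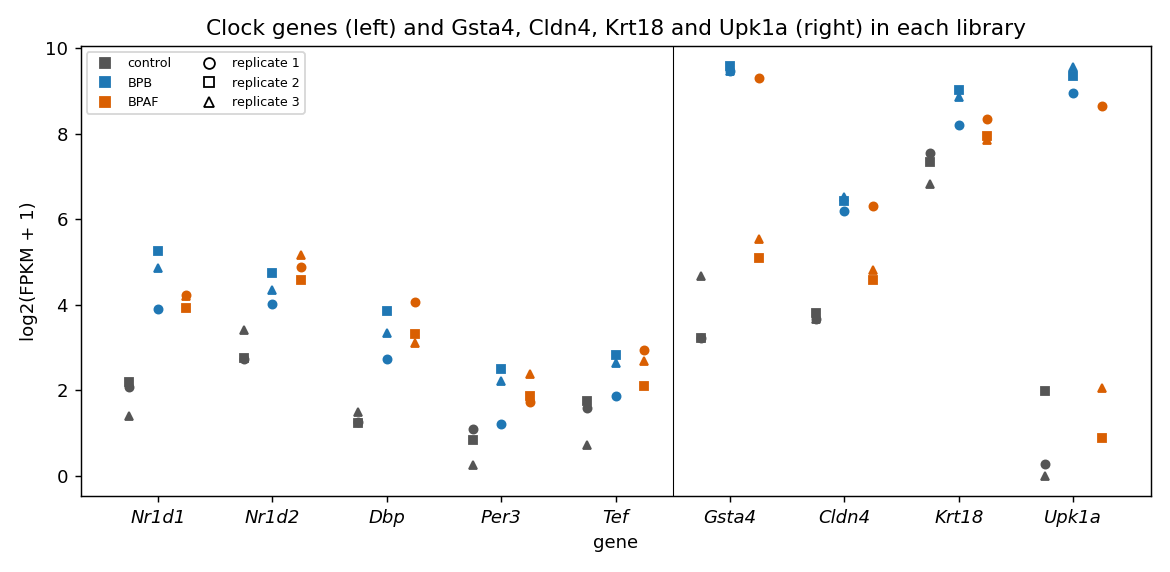
Levels on the log2(FPKM + 1) scale (vertical axis) in each of the 9 libraries for 5 separated clock genes (left of the line) and for Gsta4, Cldn4, Krt18 and Upk1a (right). The 5 clock genes are shown because they were separated, so their groups lie apart by choice. Upk1a was high in BPB 1, 2 and 3 and BPAF 1, and at 0.838 and 3.14 FPKM in BPAF 2 and BPAF 3.

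A further 4 genes passed the test in the higher direction. Plxnb1 encodes plexin B1, the receptor for semaphorin 4D. It stood at 1.23, 2.34 and 0.920 FPKM in the controls and at 6.62 to 11.8 FPKM (median 7.92) in the exposed libraries. Even the lowest exposed library, BPAF 1, lay well above control 2, the highest control (difference 2.00, SE 0.25, adjusted p = 0.0261). Amt, the aminomethyltransferase of glycine cleavage, stood at 2.27, 2.45 and 2.28 FPKM in the controls and at 5.12 to 8.74 FPKM (median 7.30) in the exposed libraries (difference 1.28, SE 0.19, adjusted p = 0.0372). Prodh, the first enzyme of proline breakdown, held 1.35, 2.68 and 1.51 FPKM in the controls and 4.33 to 7.14 FPKM (median 6.93) in the exposed libraries (difference 1.42, SE 0.22, adjusted p = 0.0400). Wfdc15b, a secreted protein with a whey acidic protein domain, held 2.60, 2.19 and 3.96 FPKM in the controls and 7.03 to 22.5 FPKM (median 16.5) in the exposed libraries (difference 2.07, SE 0.32, adjusted p = 0.0400). Prodh and Wfdc15b were both lowest in BPAF 2 among the exposed libraries, and in neither gene did the groups overlap.

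Several genes with large gaps did not pass. Slc5a11, a sodium-coupled inositol transporter, held 0.165, 0.179 and 0.197 FPKM in the controls and 2.06 to 59.6 FPKM (median 7.31) in the exposed libraries, the highest being BPAF 3 (adjusted p = 0.105). Hdac11, a histone deacetylase family member, held 2.99, 2.85 and 2.36 FPKM in the controls and 7.38 to 22.9 FPKM (median 11.6) in the exposed libraries (adjusted p = 0.0658). The controls of both genes were close together and the exposed libraries spread widely. Nipsnap1, Iah1, Echdc2 and Dcaf4 had differences of 1.47, 1.47, 1.32 and 1.05, with adjusted p-values of 0.0658, 0.0585, 0.0680 and 0.0658. Fbxo16, an F-box protein gene, held 0.162, 0.470 and 0.258 FPKM in the controls and 1.08 to 2.82 FPKM (median 1.46) in the exposed libraries (adjusted p = 0.101).

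Among the 17 genes that fell were a group of signalling genes. Pnoc encodes prepronociceptin, the precursor of the opioid-like peptide nociceptin. It stood at 2.18, 3.01 and 2.42 FPKM in the controls and at 0 to 0.138 FPKM (median 0.0763) in the exposed libraries, a difference of -1.72 ± 0.17 (SE) with an adjusted p of 0.00630. Nppc encodes C-type natriuretic peptide, which in the ovary holds oocytes in meiotic arrest and in the uterus is estrogen-responsive. It held 23.2, 31.8 and 5.02 FPKM in the controls and 0 to 2.30 FPKM (median 0.0733) in the exposed libraries (difference -3.66, SE 0.55, adjusted p = 0.0395). Control 3 was the lowest control and BPAF 2 the highest exposed library, yet they did not overlap. Grpr, the receptor for gastrin-releasing peptide, held 1.81, 1.54 and 1.19 FPKM in the controls and 0 to 0.136 FPKM (median 0.0563) in the exposed libraries (difference -1.24, SE 0.18, adjusted p = 0.0352). Il1f9, which encodes the epithelial cytokine interleukin 36 gamma, held 8.65, 3.63 and 6.92 FPKM in the controls and 0 to 1.16 FPKM (median 0.0454) in the exposed libraries (difference -2.52, SE 0.32, adjusted p = 0.0262). In each of these genes the exposed median was under 0.1 FPKM. Of 8 tested opioid and neuropeptide genes, Pnoc and Nppc were the separated ones, both lower, beside 1.69% of all tested genes. Of the 8, 4 had negative differences and 4 positive ones, where 68.6% of all tested genes had positive ones. The list median was 0.11.

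Tmprss11d and Tmprss11b encode type II transmembrane serine proteases of squamous and airway epithelium. Tmprss11d held 25.9, 12.6 and 34.5 FPKM in the controls and 0 to 3.67 FPKM (median 0.632) in the exposed libraries (difference -3.75, SE 0.54, adjusted p = 0.0352). Tmprss11b held 4.91, 1.49 and 6.55 FPKM in the controls and 0 to 0.378 FPKM (median 0.0549) in the exposed libraries (difference -2.08, SE 0.32, adjusted p = 0.0417). Both were lowest in control 2 among the controls and highest in BPAF 2 among the exposed libraries. Trim15, a tripartite motif protein gene, held 12.3, 7.90 and 4.28 FPKM in the controls and 0 to 0.963 FPKM (median 0.0372) in the exposed libraries, highest in BPAF 1 (difference -2.86, SE 0.32, adjusted p = 0.0119).

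The remaining lower genes included enzymes, a membrane protein and a kinase. Gch1, GTP cyclohydrolase 1, the first enzyme of tetrahydrobiopterin synthesis, held 20.8, 8.73 and 16.7 FPKM in the controls and 1.10 to 4.71 FPKM (median 2.05) in the exposed libraries (difference -2.25, SE 0.36, adjusted p = 0.0483). Ppp1r3c, a glycogen-targeting subunit of protein phosphatase 1, held 22.3, 23.6 and 30.2 FPKM in the controls and 6.39 to 11.6 FPKM (median 8.02) in the exposed libraries (difference -1.49, SE 0.21, adjusted p = 0.0344). Flrt2, a leucine-rich repeat membrane protein that binds FGF receptors and UNC5 receptors, held 11.1, 10.5 and 12.2 FPKM in the controls and 1.78 to 4.06 FPKM (median 2.89) in the exposed libraries (difference -1.69, SE 0.23, adjusted p = 0.0317). In these 3 genes the controls lay within a narrow band relative to the distance from the exposed libraries, apart from control 2 for Gch1. The kinase gene Nrk held 2.60, 4.35 and 1.66 FPKM in the controls and 0 to 0.488 FPKM (median 0.0715) in the exposed libraries (difference -1.72, SE 0.25, adjusted p = 0.0352). The 24th called gene, the predicted gene Gm12248, was also lower and falls outside the naming rule.

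Adamts1, Plod2, Omd and Cilp, called genes that are grouped here by their products after their values were seen, were among the 17 that fell. Adamts1, a secreted metalloproteinase that cleaves versican, held 46.1, 95.5 and 71.5 FPKM in the controls and 8.90 to 21.9 FPKM (median 14.2) in the exposed libraries (difference -2.22, SE 0.33, adjusted p = 0.0372). Plod2, a lysyl hydroxylase that prepares collagen for cross-linking, held 45.3, 46.6 and 35.1 FPKM in the controls and 10.1 to 20.9 FPKM (median 12.4) in the exposed libraries (difference -1.59, SE 0.24, adjusted p = 0.0400). In both genes every exposed library lay below every control. Omd (osteomodulin) and Cilp (cartilage intermediate layer protein) encode matrix proteins and had differences of -1.72 ± 0.26 (SE) and -1.48 ± 0.23 (SE) and adjusted p-values of 0.0400 and 0.0400.

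Among 25 fibrillar matrix genes, 5 were separated, all lower, against 1.69% of all genes, and none passed the test. The list median was -1.38. Lox, the lysyl oxidase that cross-links collagen, held 52.3, 73.7 and 59.0 FPKM in the controls and 4.22 to 26.2 FPKM (median 11.5) in the exposed libraries, with an adjusted p of 0.0737. Col1a2, a chain of collagen I, held 243, 568 and 199.7 FPKM in the controls and 36.4 to 108 FPKM (median 74.1) in the exposed libraries (adjusted p = 0.0737). Col3a1, collagen III, held 398, 849.8 and 356 FPKM in the controls and 111 to 303 FPKM (median 147) in the exposed libraries, the highest being BPB 1 (adjusted p = 0.104). Control 2 was the highest control for all 3 genes. Summed over the list, the controls held 3842 to 7496 FPKM and the exposed libraries 1691 to 3104. Of 16 matrix-degrading enzymes and inhibitors, 4 were separated, all lower: Adamts1, Adamts4, Adamts2 and Timp1. In bulk tissue, fewer cells of a type and less RNA per cell cannot be told apart, and 5 of the 15 stromal and fibroblast markers are themselves on the fibrillar matrix list. The other 10, among them Pdgfra, Hoxa10 and Vim, summed to 299.8 to 398 FPKM in the controls and 236 to 594 in the exposed libraries. Of these 10, 7 had positive differences and 3 negative, and none was separated. The part of stromal cell number in the matrix values was not tested.

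Genes known to be induced by estrogen were mostly below control. Of 29 tested, 22 had negative differences, where 68.6% of all tested genes had positive ones. Of the 29, 9 (31.0%) were separated lower and 1 (3.45%) higher, beside 1.69% and 8.53% of all tested genes. Nppc alone passed the test, and the list median was -1.76. Among the 7 members with positive differences were Sprr2a2, at 1.96, and Ccnd1, at 0.80, both with overlap. The summed level was 4365 to 9714 FPKM in the controls and 641 to 2405 in the exposed libraries. Oxtr, the oxytocin receptor, held 39.7, 56.4 and 14.7 FPKM in the controls and 0.951 to 13.5 FPKM (median 2.79) in the exposed libraries, the highest being BPAF 2 (adjusted p = 0.0789). Inhbb, the activin beta B subunit, held 218, 347 and 126 FPKM in the controls and 5.46 to 86.3 FPKM (median 14.1) in the exposed libraries, again highest in BPAF 2. No exposed library reached the lowest control in either gene. Complement C3 held 1189.7, 387 and 457 FPKM in the controls and 74.3 to 311 FPKM (median 172) in the exposed libraries. Sprr2f, a cornified envelope gene, made up much of the sum, with 3925, 2489 and 2569 FPKM in the controls and 4.05 to 927 FPKM (median 266) in the exposed libraries (adjusted p = 0.182), and its relative Sprr2b held 112, 175 and 88.2 FPKM in the controls and 0 to 13.4 FPKM (median 3.43) in the exposed libraries, with an adjusted p of 0.0511. The lowest exposed libraries of Sprr2f were BPB 3 and BPAF 3. The Sprr2 genes are near-identical copies, so how reads were split among them is uncertain. Ltf, the classic estrogen target lactoferrin, overlapped between groups, with 811, 77.4 and 318 FPKM in the controls and 7.09 to 419 FPKM (median 88.8) in the exposed libraries. Greb1 also overlapped, with 11.8, 10.3 and 3.30 FPKM in the controls and 0.682 to 8.33 FPKM (median 4.07) in the exposed libraries.

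Of the receptors, Pgr was separated. Pgr, the progesterone receptor and itself an estrogen target, held 44.8, 59.5 and 35.6 FPKM in the controls and 8.10 to 30.4 FPKM (median 14.4) in the exposed libraries (difference -1.49, SE 0.36, adjusted p = 0.108). The highest exposed library, BPAF 2, lay just below control 3. Esr1, estrogen receptor alpha, held 20.6, 28.1 and 29.6 FPKM in the controls and 12.9 to 27.6 FPKM (median 17.4) in the exposed libraries, with overlap (difference -0.51, SE 0.28, adjusted p = 0.354). Gper1, the membrane estrogen receptor, held 0.394, 1.14 and 0.732 FPKM in the controls and 0.272 to 2.28 FPKM (median 1.39) in the exposed libraries (adjusted p = 0.709). Esr2 stayed under 0.2 FPKM in all 9 libraries and was not tested.

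Of 17 tested genes of the progesterone and Indian hedgehog axis, 14 had positive differences, beside 9426 of all 13743 genes (68.6%). There were 3 separated members, all higher, beside 8.53% of all genes, and none passed the test. Ihh, the epithelial hedgehog ligand, held 0.0688, 0.0374 and 0.103 FPKM in the controls and 0.640 to 12.9 FPKM (median 1.19) in the exposed libraries (adjusted p = 0.219). Ptch1, its stromal receptor and target, held 1.97, 2.00 and 0.817 FPKM in the controls and 3.10 to 7.04 FPKM (median 4.94) in the exposed libraries (adjusted p = 0.105). Cyp26a1, which breaks down retinoic acid, held 0.224, 0 and 0.0447 FPKM in the controls and 0.270 to 154 FPKM (median 2.88) in the exposed libraries (adjusted p = 0.310). The exposed libraries of Cyp26a1 spanned a wide range, BPB 3 and BPAF 3 being far above the rest, and Ihh was highest in BPB 1. The list median was 1.04.

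In the BMP and TGF-beta list of 24 genes, 2 (8.33%) were separated higher and 2 (8.33%) lower, beside 8.53% and 1.69% of all tested genes, so the higher count was near the background. Id3, a BMP-induced inhibitor of bHLH factors, held 6.45, 10.8 and 5.94 FPKM in the controls and 18.2 to 54.5 FPKM (median 30.5) in the exposed libraries (adjusted p = 0.0672). Bambi, a decoy receptor, held 0.960, 1.76 and 1.41 FPKM in the controls and 2.81 to 7.44 FPKM (median 4.85) in the exposed libraries (adjusted p = 0.101). The receptors Tgfbr2 and Acvr1 were the lower pair, with differences of -0.87 and -0.36. In the WNT list of 26 genes, 24 differences were positive, beside 68.6% of all tested genes, and 2 genes (7.69%) were separated higher, which is no more than the 8.53% of all tested genes. Nkd2, an inhibitor of the pathway, held 2.20, 2.12 and 1.44 FPKM in the controls and 2.63 to 26.1 FPKM (median 10.9) in the exposed libraries (adjusted p = 0.113). Rspo3, a secreted amplifier of WNT signals, held 6.17, 10.9 and 13.5 FPKM in the controls and 13.9 to 34.98 FPKM (median 18.9) in the exposed libraries (adjusted p = 0.175). After median-ratio scaling 1 of the 2 WNT genes was still separated.

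**Figure D4:**
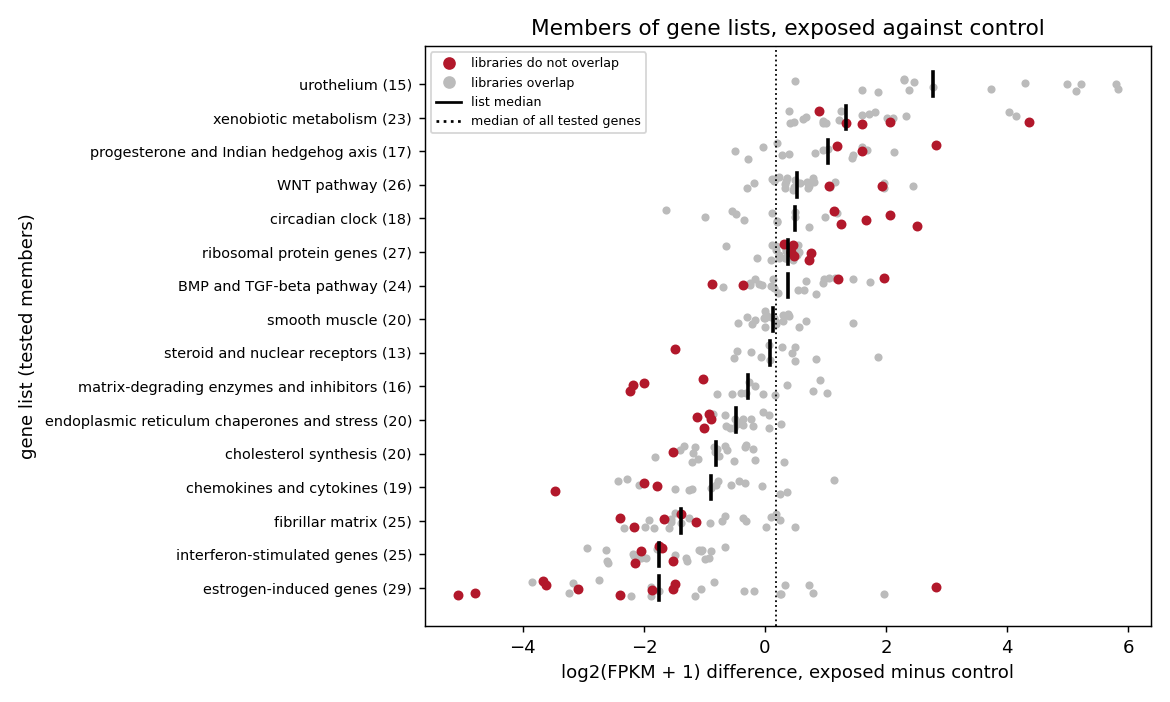
Differences on the log2(FPKM + 1) scale (horizontal axis) for the tested members of 16 gene lists, with separated members in red, the list medians as bars and the median of all tested genes, 0.19, as a dotted line. The estrogen-induced, interferon-stimulated and fibrillar matrix lists have medians of -1.76, -1.74 and -1.38, and the urothelium list, with no separated member, has 2.78.

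All 25 interferon-stimulated genes had negative differences (median -1.74), where 68.6% of all tested genes had positive ones. Of the 25, 5 were separated, all lower, beside 1.69% of all tested genes, and none passed the test. Bst2, tetherin, held 773, 272 and 347 FPKM in the controls and 84.3 to 172 FPKM (median 139) in the exposed libraries (adjusted p = 0.0980). Stat2, a signal transducer of the interferon response, held 99.96, 18.6 and 10.5 FPKM in the controls and 8.33 to 9.28 FPKM (median 8.89) in the exposed libraries (adjusted p = 0.190). Oas3, an antiviral synthetase, held 33.4, 1.31 and 1.69 FPKM in the controls and 0.0444 to 0.966 FPKM (median 0.279) in the exposed libraries (adjusted p = 0.180). Control 1 stood far above control 2 and control 3 in these genes, and the list sum was 3139 FPKM there beside 510.2 and 862 in the others and 196 to 644 in the exposed libraries. The sum of BPAF 1 exceeded that of control 2, so the groups' sums overlapped.

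Of 19 chemokines and cytokines, 3 (15.8%) were separated, all lower, beside 1.69% of all tested genes. Ccl7, a monocyte chemokine, held 51.0, 13.1 and 29.1 FPKM in the controls and 0.0933 to 5.39 FPKM (median 1.59) in the exposed libraries (adjusted p = 0.0680). Ccl2, its close relative, held 11.6, 3.32 and 4.03 FPKM in the controls and 0.196 to 1.87 FPKM (median 0.567) in the exposed libraries (adjusted p = 0.0737). Il1a held 6.98, 2.89 and 2.69 FPKM in the controls and 0 to 1.78 FPKM (median 0.349) in the exposed libraries (adjusted p = 0.0810). Control 1 was again the highest control in all 3 genes. The macrophage marker list summed to 302 to 576 FPKM in the controls and 138 to 708 in the exposed libraries. Of its 12 members 1 (8.33%) was separated, Cd14, which was lower, beside 1.69% of all tested genes. Cd14 held 226, 103 and 129 FPKM in the controls and 22.8 to 84.7 FPKM (median 65.5) in the exposed libraries. Of the 9 neutrophil markers 2 were tested, and the list summed to 7.15 to 22.5 FPKM in the controls and 0.224 to 4.03 in the exposed libraries. The part of these cells in the cytokine values was not tested.

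Of 20 endoplasmic reticulum chaperone and stress genes, 4 were separated lower and none higher, and the median was -0.48. Hspa5, the chaperone BiP, held 144, 164 and 294 FPKM in the controls and 32.7 to 132 FPKM (median 113) in the exposed libraries (adjusted p = 0.223), and Pdia3, a disulfide isomerase, held 316, 257 and 467 FPKM in the controls and 111 to 219 FPKM (median 203) in the exposed libraries, with an adjusted p of 0.171. Of 20 cholesterol synthesis genes, 19 had negative differences, where 68.6% of all tested genes had positive ones. Cyp51, lanosterol demethylase, was the separated one (5.0%, beside 1.69% of all tested genes separated lower). It held 39.7, 31.6 and 25.8 FPKM in the controls and 8.37 to 19.2 FPKM (median 9.497) in the exposed libraries (adjusted p = 0.0658). After median-ratio scaling 10 of the 20 cholesterol synthesis genes were separated lower, beside 590 of all 13743 tested genes. All 25 mitosis genes had negative differences with a median of -0.53, where 68.6% of all tested genes had positive ones, and none was separated. The mitosis median was -1.09 for BPB against control and -0.07 for BPAF against control. Of 25 DNA replication genes, 22 had positive differences in the pooled comparison and none was separated. Their median was -0.29 for BPB against control and 0.66 for BPAF against control. Mki67, a proliferation marker, held 11.3, 21.03 and 35.2 FPKM in the controls and 4.53 to 25.5 FPKM (median 7.10) in the exposed libraries, with overlap. Of 27 ribosomal protein genes, 6 (22.2%) were separated higher in deposited values, beside 8.53% of all tested genes. After scaling 1 of the 27 was, a share near that of all tested genes (487 of 13743).

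All 23 tested genes of xenobiotic metabolism had positive differences (median 1.34), beside 68.6% of all tested genes. Of the 23, 5 were separated higher, beside 8.53% of all genes, and none passed the test, and after median-ratio scaling 1 of the 5, Ugt1a6a, was still separated. Gsta4, a glutathione transferase, held 8.31, 8.37 and 24.4 FPKM in the controls, 709, 763 and 704 in the BPB libraries and 632, 32.9 and 45.5 in the BPAF libraries. Reads of glutathione transferases can be shared between close family members, so single values are uncertain. Fmo2, a flavin monooxygenase, held 1.09, 1.02 and 1.11 FPKM in the controls and 1.198 to 17.8 FPKM (median 8.80) in the exposed libraries, the lowest being BPAF 2 and the highest BPAF 3. Fmo1, its relative, was likewise highest in BPAF 3, at 21.9 FPKM, beside 3.24, 5.07 and 1.63 in the controls. Summed over the list, the controls held 199 to 256 FPKM, BPB 1923 to 2322, BPAF 1 1755, and BPAF 2 and BPAF 3 307 and 407. The mean log2(FPKM + 1) over the list was 1.93 in BPAF 2 and 2.56 in BPAF 3, beside 3.60 in BPAF 1. The list as a whole and Gsta4 were thus highest in the 4 libraries that held urothelial transcripts. Fmo1 and Fmo2 were highest in a library that did not. The part of urothelial tissue in these values was not tested.

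The 15 urothelial genes were all tested, none was separated, and their summed level was 30.9 to 90.3 FPKM in the controls, 2168 to 3648 in BPB, 1884 in BPAF 1, and 15.4 and 17.4 in BPAF 2 and BPAF 3. Upk3a, a uroplakin, was listed at 0 in all controls, BPAF 2 and BPAF 3, and held 323 to 547 FPKM in the other 4 libraries. Markers of lower urinary tract muscle and mesenchyme summed to 0.738 to 1.04 FPKM in the controls, 105 to 211 in BPB and 1.18 to 22.6 in BPAF. Cldn4, a tight junction claudin, held 11.7, 13.1 and 11.7 FPKM in the controls, and its lowest exposed libraries were BPAF 2 and BPAF 3 at 23.0 and 27.1 beside 72.4 to 90.6 in the other 4. The part of urothelial and adjoining tissue in the higher genes was not tested.

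Within the pooled group, BPB and BPAF were compared directly at their matched dose and time. Of the 13743 genes, 33 (0.24%) passed for BPAF against BPB, all lower in BPAF. Of these 33, 3 were separated, Foxf1, Foxf2 and Ngb, a share near the 10.2% of all tested genes that were separated. BPB and BPAF libraries of the same number deviated together from their group means. With the number as a block over all 9 libraries, controls included, limma called 0 genes, with 852 at an unadjusted p under 0.05. Foxf1, a forkhead factor of visceral mesenchyme, held 14.6, 20.5 and 13.8 FPKM in BPB and 4.97, 1.73 and 3.13 in BPAF, beside 1.07, 1.22 and 0.656 in the controls. The difference between the bisphenols was -2.07 ± 0.31 (SE), with an adjusted p of 0.0448. Ngb, neuroglobin, and Foxf2 differed by -2.15 ± 0.33 (SE) and -1.39 ± 0.22 (SE). In all 3 genes BPAF 1 was the highest BPAF library, and the same 4 libraries that held urothelial markers were the highest. With any 1 control, BPB 2, BPB 3, BPAF 2 or BPAF 3 left out, no gene passed this limma comparison, at 563 to 1189 genes with an unadjusted p under 0.05, and without BPAF 1 there were 234. Under voom in limma on recovered reads none passed, with 902 genes at an unadjusted p under 0.05. The 20 smooth muscle markers summed to 8864 to 14004 FPKM in BPB, 1323 to 4125 in BPAF and 4457 to 6844 in the controls, and their part in this comparison was not tested.

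None of the 24 called genes passed for BPAF against BPB, beside 0.24% of all tested genes. Neither this count nor the intervals below show that the bisphenols agree. The pooled fit counts the difference of BPAF from BPB as spread, so passing genes were favoured where it was small. The interval of that difference (95%) was -0.39 to 0.46 for Zbtb9, -0.54 to 0.34 for Pnoc, -0.62 to 0.63 for Flrt2 and -0.64 to 0.39 for Amt, on the log2 scale. It was wider for Nr1d1, at -1.38 to 0.26, and for Nppc, at -0.98 to 1.90, and a difference of any size within these unadjusted intervals could not be told from none with 3 libraries each. For Gch1 the interval was 0.03 to 1.59, and the difference did not pass after adjustment (adjusted p = 0.697). The comparisons of each bisphenol with control share the 3 controls. BPB against control passed 351 genes (2.55%) and BPAF against control 3 (0.0218%). For Nr1d1 the difference from control was 2.79 in BPB and 2.23 in BPAF, and for Gch1 -2.65 and -1.84. Of the 1404 separated genes, 693 were farther from control in BPB and 711 in BPAF. Among the 232 lower genes 155 (66.8%) were farther in BPB and 77 in BPAF. Among the 1172 higher genes 538 (45.9%) were farther in BPB and 634 in BPAF. Over all 13743 tested genes, 7226 (52.6%) were farther in BPB in the direction of the pooled difference.

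**Figure D5:**
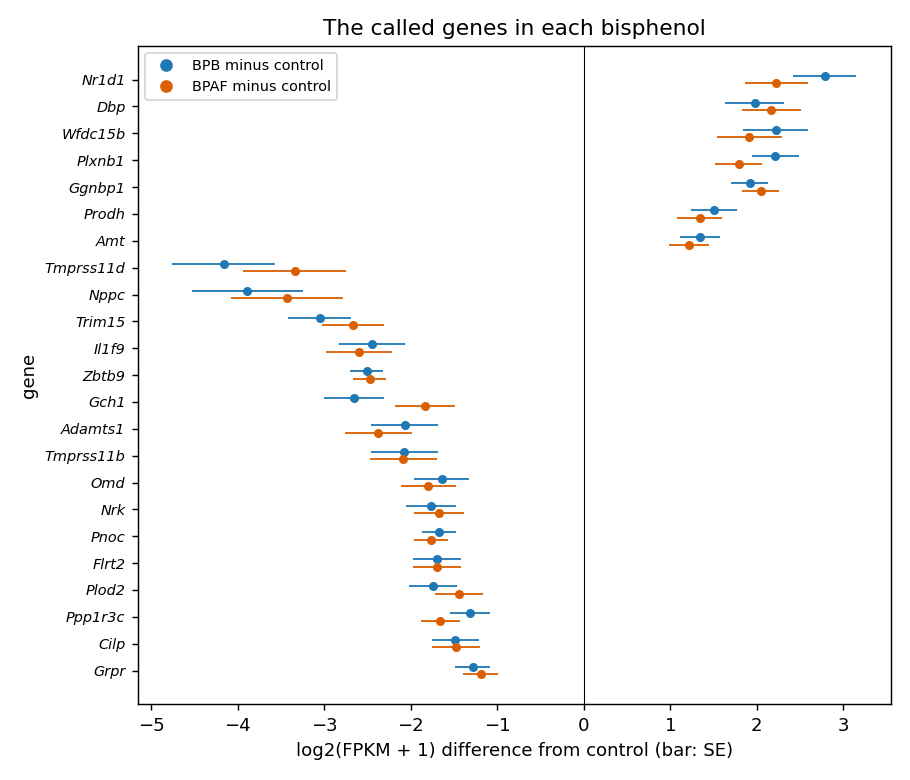
Difference from control on the log2(FPKM + 1) scale (horizontal axis) in BPB (blue) and BPAF (orange) for the 23 called genes with a gene name, with SE bars from the 3-group limma fit. Both bisphenols lie on the same side of control in each gene shown, as the choice of separated genes requires, and both share the 3 controls.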

How the data were processed

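Uterus RNA of 9 libraries, 3 each of control, BPB and BPAF, was taken from 1 deposited table per library. Its values were read as FPKM, a normalization by the authors that precedes deposit; the headers name no unit, and the values themselves led to this reading. Aligner, counter, genome build, annotation and use of strand: not given in the sources used here. Of 34745 lines per table, 126 with 1 of 59 repeated symbols were left out, and 27 lines carry a symbol in date form. Whole reads were recovered for 20441 of 20533 genes searched (99.6%). For each gene a length was sought that made all 9 values near-whole multiples of 1 step per library. That length was a GENCODE M21 one for 4595 genes and was otherwise fitted, so the 99.6% does not measure how well reads are known. With GENCODE M21 lengths of genes with 1 transcript, 84.4% to 86.4% of non-zero values per library were whole within 0.01. GENCODE M21 served for transcript lengths and overlaps, and RefSeq (GRCm38.p6) for promoters.

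Groups came from the sample titles. Genes reaching 1 FPKM in 3 or more libraries were tested on log2(FPKM + 1) with limma 3.58.1 in R 4.3.3 (trend, robust), with exposed against control as the only term over 9 libraries, two-sided, and Benjamini-Hochberg adjustment over 13743 genes at a threshold of 0.05. A fit with 3 groups gave BPAF against BPB and each bisphenol against control. The fit was tested on simulated data. As the unit was FPKM, no count model is the main test. Depth is given as reads behind the scaling; with no animal identities, precision rests on the spread between 3 and 6 libraries.

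The members, gene lists and tests were chosen with earlier results of these data known. Named were, by rule, the 12 separated genes of largest gap in each direction with a group mean of 1 FPKM or more, the called genes with a gene name (up to 20 a direction), up to 4 separated members of each list by unadjusted p, 11 genes named in any case, and the 6 separated genes of smallest unadjusted p for BPAF against BPB. List members that illustrate a list beyond this rule (Arntl, Bhlhe40, Per2, Tef, Inhbb, C3, Sprr2a2, Ccnd1, Upk1a, Upk3a) and 1 gene of the rule's edge on each side were added after their values were seen. Of the 40 lists, those for DNA replication, heat shock, chromatin writers, nuclear-encoded oxidative phosphorylation, NRF2 targets, endothelium, mesothelium, adipocytes, lymphocytes, mast cells, erythrocytes, ovary and oviduct held 0 or 1 separated member each. Alternatives were other filters, scaling by median ratios, other pseudocounts, fit options, the replicate number as a block (same-numbered BPB and BPAF libraries correlated at 0.339 to 0.484 in their deviations, a pairing read from the data and not given in the labels), each library left out, and, added after seeing the data, voom on recovered reads and a fit of BPAF 2, BPAF 3 and controls alone.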

Additional observations from a re-analysis of the deposited data

Results flagged for a closer look

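Single exposed libraries stood apart from the other 5 in 10 of 95 named genes. The cut used flags about 1 in 20 groups drawn from 1 normal distribution. The exposed libraries mix BPB and BPAF and differ in urothelial transcripts, so the 10 cannot be set against that rate. BPAF 2 was low for Prodh (4.33 FPKM, the others 6.87 to 7.14) and for Wfdc15b (7.03, the others 15.2 to 22.5), and high for Nppc (2.30, the others 0 to 0.460), for Nrk (0.489, the others 0 to 0.143) and for Cyp51 (19.2, the others 8.38 to 10.1). BPAF 3 was high for Echdc2 (16.5 FPKM, the others 7.27 to 9.79) and low for Prss23 (25.3, the others 64.7 to 72.0). Prss23, a serine protease gene, overlaps an antisense gene and held 164, 152 and 188 FPKM in the controls. BPAF 1 was high for Trim15 (0.963 FPKM, the others 0 to 0.239). BPB 1 was high for Col3a1 (303.2 FPKM, the others 111 to 153) and for S100a9, a neutrophil gene (2.26, the others 0 to 0.321). For Nppc, Nrk, Trim15 and S100a9 the other exposed libraries lay near 0 FPKM. All 10 genes are separated ones, as most named genes are by the naming rule.

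Of the 1404 separated genes, the bisphenols differed from each other in 3 by limma with Benjamini-Hochberg adjustment over all genes, beside 33 of all 13743 tested genes. BPAF minus BPB was -2.15 for Ngb (adjusted p = 0.0448), -2.07 for Foxf1 (adjusted p = 0.0448) and -1.39 for Foxf2 (adjusted p = 0.0454), with all 3 BPAF libraries below all 3 BPB libraries in each gene. With the replicate number as a block, these 3 and all other genes missed the threshold for BPAF against BPB: limma called 0, with 852 at an unadjusted p under 0.05.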

How the results depend on the processing

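Of 24 genes called for exposed against control, the count moved to 0 with a filter of 5 FPKM (1432 at an unadjusted limma p under 0.05), to 81 with median-ratio scaling, to 5 with a pseudocount of 0.1 and 5 with 0.01, to 141 at an adjusted p of 0.1, to 3712 with array quality weights, and to 6 with voom on recovered reads (2291 unadjusted). It was 0 with only BPAF 2, BPAF 3 and the controls (760 unadjusted), and 1 to 310 with 1 library left out. With the replicate number as a block it was 12, of which 8 were among the 24, and BPAF against BPB gave 0 (852 unadjusted) in place of 33. Same-numbered deviations from the group means correlated at -0.399 to -0.079 between control and exposed libraries and at 0.339 to 0.484 between BPB and BPAF. Libraries of different number were not compared in this way. The block gave each number 1 shared effect over all 9 libraries, controls included. Its counts therefore also rest on a pairing with control that these correlations do not show. The cause of these moves was not tested.

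The count of separated genes, 1404, was 750 with a filter of 5 FPKM, which tests fewer genes, 3339 with only BPAF 2, BPAF 3 and the controls, and 1503 to 2981 with 1 library left out, where fewer libraries must be cleared. The moves over 1.5 times came without control 2 (2853), control 3 (2981) and BPAF 2 (2167). For BPAF against BPB, limma called 11 genes with no filter, 0 with 5 FPKM (534 unadjusted), 0 with either other pseudocount (897 and 857 unadjusted), 66 at an adjusted p of 0.1, 0 with voom (902 unadjusted) and 0 to 234 with 1 library left out.

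Over the named genes, 1588 alternative values kept their direction and side of the threshold, 250 no longer passed, 111 newly passed and 1 changed sign: Gper1, at -0.0716 with only BPAF 2, BPAF 3 and the controls. Zbtb9 missed the threshold in 2 of 21 alternatives. Genes near 1 FPKM are limited by depth, and the 3 controls limit every call.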

Other observations

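Values of 4 genes are set out here; Il13ra2 was chosen after its values were seen. Cxcl15, a chemokine of glandular epithelium, held 0.125, 0.170 and 0.149 FPKM in the controls and 0.457 to 23.5 FPKM (median 3.41) in the exposed libraries, with no overlap and an adjusted p of 0.188 (limma). Il13ra2, the decoy receptor for interleukin 13, held 1.0015, 0.531 and 0.276 FPKM in the controls and reached 57.7 FPKM in BPAF 3, 20.5 in BPB 1 and 11.4 in BPB 3, while BPAF 2 held 0.265. Myc, a growth regulator, held 2.06, 2.80 and 3.58 FPKM in the controls and 4.05 to 11.7 FPKM (median 4.97) in the exposed libraries (adjusted p = 0.194), whereas Fos held 25.1, 11.2 and 15.2 in the controls and 2.51 to 7.79 FPKM (median 5.33) in the exposed libraries (adjusted p = 0.0906). Fos also belongs to the estrogen-induced list. Fos and Myc were the separated members among 15 tested immediate early genes, 1 lower and 1 higher (6.67% each, beside 1.69% lower and 8.53% higher of all tested genes), and 10 of the 15 had negative differences. After median-ratio scaling Myc overlapped between groups. Of the 15, 4 were then separated lower (Fos, Fosl2, Jun and Ier3), beside 590 of all 13743 tested genes.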
